A study of Arabidopsis thaliana with 12 samples.

Results

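The comparison set 2 Arabidopsis thaliana mutants of nonsense-mediated mRNA decay side by side, lba1 and upf3-1. It used 4 of the 12 RNA-seq libraries of the study, 2 labelled lba1 and 2 labelled upf3-1, chosen by these labels and not by any measured value. All libraries came from 11-day-old seedlings of accession Columbia, grown in continuous light on medium with 2% sucrose. The labels give lba1 the genotype upf1-/- and upf3-1 the genotype upf3-/-, both without treatment. Each gene is represented by 1 mutant allele. The lba1 allele is known as a missense mutation and upf3-1 as a T-DNA insertion. Whole seedlings were used, so that fewer cells of a type and less RNA per cell cannot be told apart. The other groups of 2 libraries were used here only to place the genes and in a filter on low values. They were untreated wild type, the double mutant lba1 upf3-1, and wild type kept for 4 h in liquid medium. That medium was without (mock) or with 10 µg/ml cycloheximide, an inhibitor of translation.

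Nonsense-mediated decay degrades mRNAs on which translation ends in an unusual context, such as ahead of a downstream exon junction or a long 3' region. UPF1 is an RNA helicase at the centre of the pathway, and UPF3 links it, through UPF2, to the protein complex left at exon junctions. In Arabidopsis, mutants of the pathway are also known for activated immune responses. The lba1 mutation was isolated in a screen for altered sugar-induced expression of a beta-amylase gene.

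The deposited table holds 1 column of RPKM, a read density corrected for gene length and for sequencing depth, for each group, with the 2 libraries of a group pooled. No spread between replicates can therefore be computed, and no difference below carries a test. Differences are given as log2(RPKM + 0.5) in lba1 minus the same in upf3-1, on which changes of weakly expressed genes look smaller than they are. The 14079 loci described, of 33602, averaged 5 RPKM or more across all 6 columns. A gene is called higher or lower where the columns differ by at least 2-fold on this scale, a rule of size. The depth implied by the smallest steps of the values was 88.1 M reads for lba1 and 91.4 M for upf3-1. The ± after a difference is the half-width of its 95% counting interval, which covers counting error only. Its median was 0.08 and its 95th percentile 0.25 over 556 genes. These are the members of the lists below that passed the filter and the genes leading by difference or abundance.

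Most genes differed little between the mutants. The median difference was 0.08, 52.3% of genes lay within 0.25 of 0, and the 5th and 95th percentiles were -0.85 and 0.62. Past 2-fold 133 genes were higher in lba1, which is 0.945% of those described, and 540 were lower, which is 3.84%. The imbalance was wider further out, with 22 genes higher and 128 lower by at least 4-fold, and 4 higher and 30 lower by at least 8-fold. Of the genes lower in lba1 531 were protein coding, and of those higher 121. The filter takes in genes that were abundant only in another column, and the lists below were chosen with earlier results of these data known. Each count of list members past 2-fold is to be read beside these shares of 0.945% and 3.84%. With a filter on the lba1 and upf3-1 columns alone, 116 genes were higher and 350 lower.

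**Figure D1:**
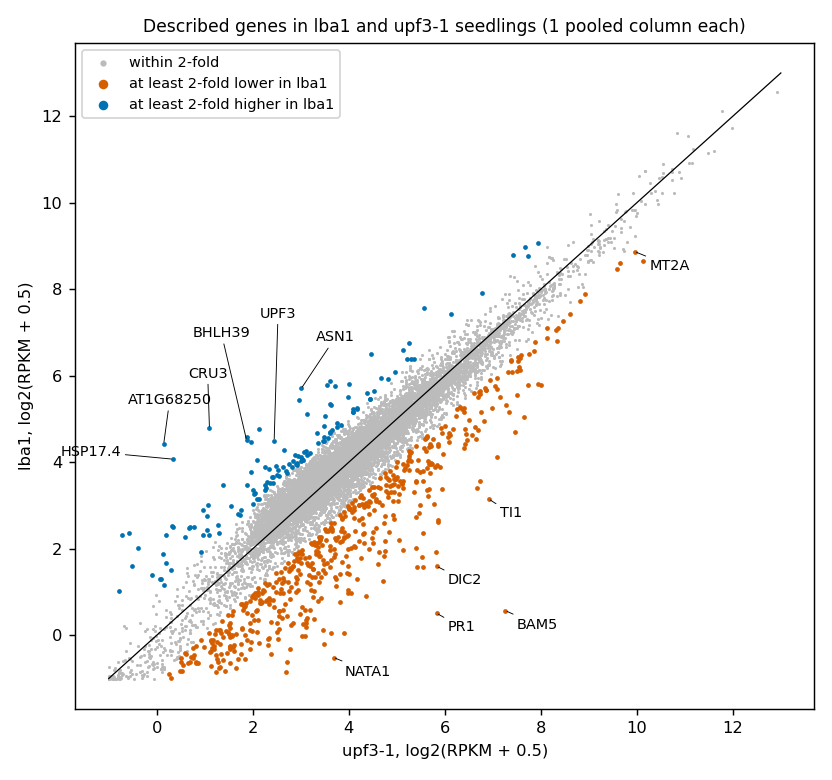
Each point is 1 of the 14079 described genes, with log2(RPKM + 0.5) in upf3-1 on the horizontal axis and in lba1 on the vertical axis, and the line marks equal values. The 540 genes lower in lba1 reach farther from the line than the 133 higher genes, with BAM5 and PR1 farthest below it.

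The mutated genes and the decay machinery come first. UPF3 stood at 22.2 RPKM in lba1 and 4.95 in upf3-1, against 4.82 in lba1 upf3-1, 13.1 in wild type, 25.4 in mock and 23.1 in cycloheximide-treated seedlings. Both columns that carry upf3-1 were the lowest, and the difference between the single mutants was 2.06 ± 0.09. UPF1 stood at 24.0 RPKM in lba1 and 24.6 in upf3-1, a difference of -0.03 ± 0.04, and its level is no check of the lba1 label. Among the 14 genes for decay and exon junction complex proteins UPF3 was the only one past 2-fold, and the median difference was 0.12. AT2G39260, annotated as regulator of nonsense transcripts UPF2, differed by 0.07 ± 0.07, and the exon junction proteins MAGO, Y14 and EIF4A-III by -0.20, 0.03 and -0.04. PYM, a partner of these proteins, differed by 0.30, the cap-binding proteins CBP20 and ABH1 by 0.16 and 0.25, and ALY4 by 0.35. AT5G59950, AT5G02530 and AT1G66260, annotated as RNA-binding proteins, differed by 0.36, 0.35 and 0.08.

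Splicing regulators lay slightly above their upf3-1 levels in lba1, and none reached 2-fold. Many of their genes make splice forms with premature stop codons, which the decay pathway removes. All 23 that passed the filter were above 0, or 22 when the columns were scaled to the same median or quantile normalized, with a median of 0.33 beside 0.08 for all genes. RS40, an SR protein, was at 56.1 RPKM in lba1 and 28.8 in upf3-1, against 13.5 in wild type and 83.3 in lba1 upf3-1, a difference of 0.95 ± 0.04. TFIIIA, the transcription factor of 5S ribosomal RNA, was at 50.9 and 30.1 RPKM, against 17.5 in wild type and 87.3 in the double mutant. For both genes the order was wild type, upf3-1, lba1, double mutant. The list as a whole did not follow it. Its 25 genes summed to 900 RPKM in wild type, 900 in upf3-1, 1175 in lba1 and 1150 in the double mutant. SR30 and PTB2, a polypyrimidine tract binding protein, differed by 0.51 and 0.53, and the lowest difference was that of RSZ21, at 0.06. Of 14 genes with a conserved upstream reading frame only 3 passed the filter, with none past 2-fold: AT1G29950 differed by 0.26, CIPK6 by -0.03 and SAMDC1 by -0.17.

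Genes of salicylic acid defence were lower in lba1 than in upf3-1. All 23 that passed the filter were below 0, 13 of them by at least 2-fold, and the median was -1.09. Markers of the response led the list. PR1, an antimicrobial protein of the apoplast, was at 0.922 RPKM in lba1 and 56.4 in upf3-1, against 113 in wild type, 6294 in the double mutant, 1.401 in mock and 0.047 with cycloheximide. PR2, a beta-1,3-glucanase, was at 3.52 RPKM in lba1 and 41.8 in upf3-1, against 22.1 in wild type and 189 in the double mutant. For both genes lba1 lay below wild type and the double mutant far above every other untreated column. Their differences were -5.32 ± 0.22 and -3.39 ± 0.12.

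Regulators of the same response differed less. CBP60G and SARD1, transcription factors that drive salicylic acid synthesis, differed by -2.56 and -1.83. PNP-A, a secreted natriuretic peptide, differed by -2.78 and NIMIN1, a partner of the receptor NPR1, by -1.95. The synthesis enzyme ICS1 differed by -0.59, and the receptors NPR1, NPR3 and NPR4 by -0.16, -0.36 and -0.06, all short of 2-fold. NLR immune receptors, which sense pathogen effectors, held none past 2-fold among 19, with a median of -0.34 and values from -0.74 for ADR1 to 0.33 for AT5G66910. That list is a selection. Of all 37 described genes annotated to the TIR-NBS-LRR class of disease resistance proteins 7 were lower and none higher, or 18.9% beside 3.84% of all genes, with a median of -0.27, and of 14 in the CC-NBS-LRR class none was past 2-fold. AT1G66090, annotated as a TIR-NBS protein, was among the 20 lowest differences, at 0.531 RPKM in lba1, 11.8 in upf3-1 and 4.41 in wild type.

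Transcription factors of the rapid stress response were lower in lba1 as well. Among ERF and CBF factors, which bind ethylene and cold response promoters, 12 of 15 were lower, beside 3.84% of all genes, and the median was -1.58. The listed genes summed to 76.1 RPKM in lba1, 320 in upf3-1 and 9725 with cycloheximide, a column that also counts in the filter. ERF6 was at 3.41 RPKM in lba1 and 34.4 in upf3-1, against 7.84 in wild type, 12.8 in the double mutant, 14.4 in mock and 957 with cycloheximide. ERF11, at 1.46 and 15.4 RPKM, and ERF105, at 3.29 and 55.8, differed by -3.01 and -3.89, and the exons of ERF105 lie wholly under another locus. Of 17 WRKY factors 6 were lower and none higher, with WRKY18 at -3.23, WRKY46 at -3.06, WRKY33 at -2.57 and WRKY40 at -2.44. Over all 35 WRKY genes described, 8 were lower, none was higher and the median was -0.57. Some of these passed the filter only through other columns. WRKY59 was at 0 RPKM in lba1, 0.038 in upf3-1 and 41.95 with cycloheximide, and WRKY30 at 0.087, 0.617 and 483. No list or family median was computed with the filter on the lba1 and upf3-1 columns alone. The zinc fingers ZAT10 and ZAT12, at -3.19 and -2.36, were among 5 of 7 lower members of their group. Calmodulin-like and touch genes held 6 of 10 lower, led by CML38, at 1.89 RPKM in lba1, 25.6 in upf3-1 and 2.94 in wild type.

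Pattern-triggered immunity leaned the same way, with 7 of 17 genes lower and a median of -0.63. The kinase MPK3 differed by -1.59, RBOHD, the oxidase of the reactive oxygen burst, by -1.24, and CYP81F2, an enzyme of indole glucosinolate modification, by -2.36. FLS2, the flagellin receptor, went the other way at 14.1 RPKM in lba1 and 7.21 in upf3-1, a difference of 0.92 that is short of 2-fold. In camalexin and indole defence 5 of 14 genes were lower and CYP71A13, an enzyme of camalexin synthesis, was higher at 1.29 ± 0.12. PAD3, the last enzyme of that pathway, was lower at -1.23, MYB51 at -1.62, and the glutathione transferases GSTF6 and GSTF7 at -1.96 and -1.67. Aliphatic glucosinolate genes, another branch of chemical defence, held none past 2-fold among 15, with a median of -0.08.

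**Figure D2:**
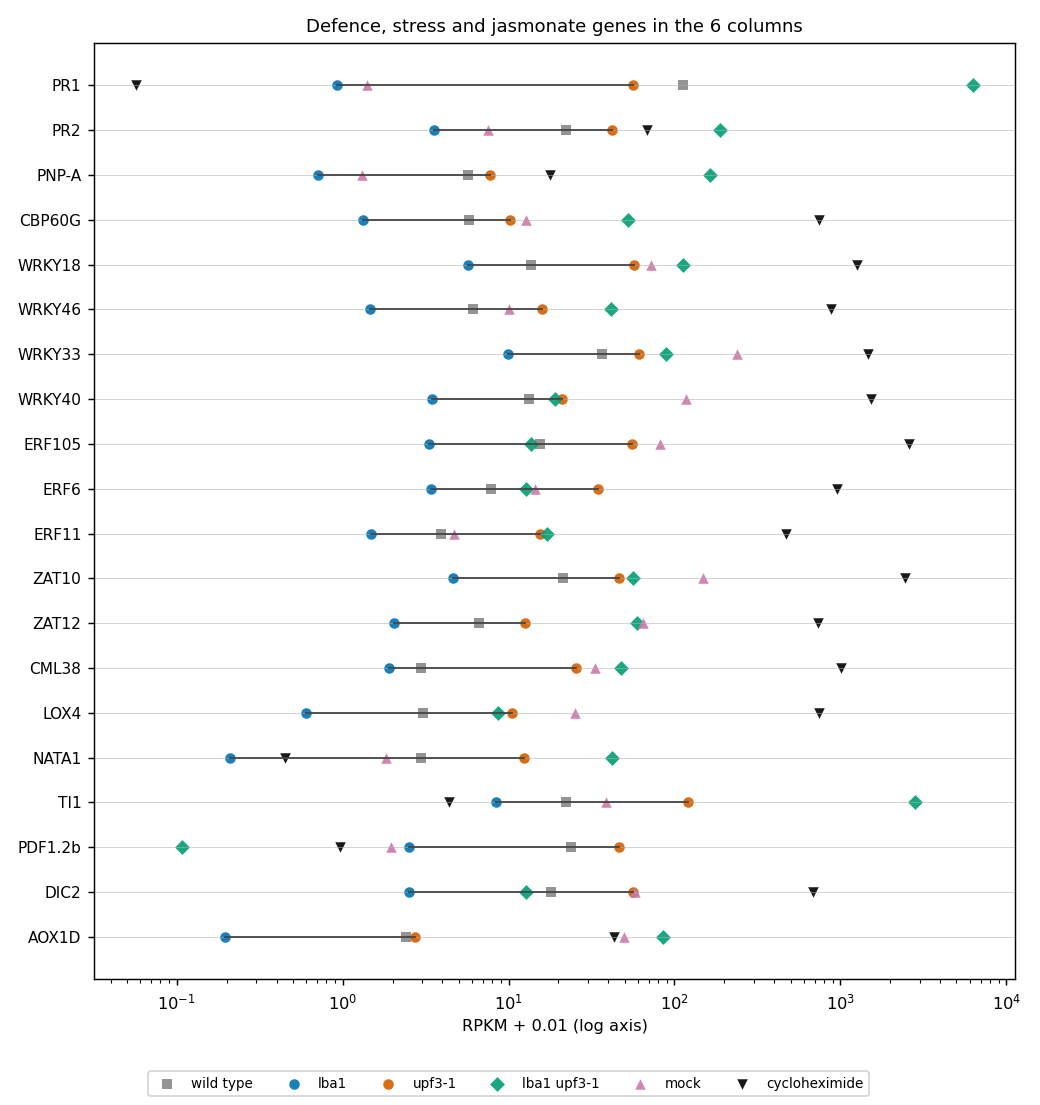
RPKM plus 0.01 is on a log axis for 20 genes of defence, stress and jasmonate output, with 1 point for each of the 6 columns and a line from lba1 to upf3-1. In these 20 genes, which are a selection, the lba1 point lies left of both the upf3-1 and the wild type point. Some other defence and stress genes lay above wild type in lba1, such as WRKY25 (12.28 against 9.90 RPKM). List sums went both ways: salicylic acid defence held 115 RPKM in lba1 against 344 in wild type, calmodulin-like and touch genes 293 against 235.

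Jasmonate genes were lower in lba1, both in synthesis and in output. Of 25 genes of jasmonate synthesis and JAZ repressors 10 were lower and none higher, with a median of -0.72. LOX4, a lipoxygenase, was at 0.594 RPKM in lba1, 10.5 in upf3-1 and 3.03 in wild type. AOC1 and AOC2, neighbouring genes for allene oxide cyclase, differed by -1.91 and -1.54, JAZ7 by -1.61 and JAZ1 by -1.45. Among 9 output genes 6 were lower, with a median of -1.48. NATA1, an acetyltransferase of the jasmonate response, was at 0.200 RPKM in lba1 and 12.4 in upf3-1, and TAT3, a tyrosine aminotransferase, at 0.154 and 6.03. TI1, a trypsin inhibitor, was at 8.37 RPKM in lba1, 120 in upf3-1, 22.2 in wild type and 2803 in the double mutant.

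Plant defensins and basic PR genes held 5 of 8 lower and 1 higher, with a median of -2.04. PDF1.2b was at 2.50 RPKM in lba1 and 46.3 in upf3-1, against 23.8 in wild type and 0.098 in the double mutant. PDF1.2, PDF1.2c and PDF1.3 differed by -2.23, -1.95 and -2.84, and reads of these near-identical copies may be split between them. PR4, at -2.14 ± 0.04, showed the opposite position of the double mutant, with 55.4 RPKM in lba1, 246 in upf3-1 and 2083 in lba1 upf3-1. PDF1.1 was the higher member, at 1.52 RPKM in lba1 and 0.083 in upf3-1.

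Genes of the mitochondrial stress response, which code for carriers and alternative respiration enzymes, held 5 of 8 lower, with a median of -1.61. DIC2, a dicarboxylate carrier of the inner membrane, was at 2.52 RPKM in lba1, 56.6 in upf3-1, 17.9 in wild type, 12.8 in the double mutant, 57.4 in mock and 685 with cycloheximide. DIC1, its paralog, differed by -2.47, AOX1D, an alternative oxidase, by -2.23, OM66 by -1.67 and UGT74E2 by -1.55. AOX1A, the main alternative oxidase, differed by -0.87. The 250 bases before the annotated start of DIC2 are shown because they hold both motifs known from rapid stress induction, with matches in capitals. They lie at chr4:12686209-12686458, plus strand, of the TAIR10.1 genome from RefSeq, to which all promoters below refer.
DIC2: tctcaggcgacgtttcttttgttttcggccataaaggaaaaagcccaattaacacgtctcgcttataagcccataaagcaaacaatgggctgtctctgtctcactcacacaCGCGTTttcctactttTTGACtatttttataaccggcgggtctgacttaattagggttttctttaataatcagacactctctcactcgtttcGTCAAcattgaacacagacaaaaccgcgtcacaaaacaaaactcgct
The capitals mark CGCGTT, the rapid stress response element, starting 139 bases before the gene start, and the W-box core TTGAC bound by WRKY factors, at 123 bases, and on the other strand at 47 bases. Searched on both strands, the W-box core was found in 59.5% of 531 promoters of genes lower in lba1, 40.5% of 121 of genes higher and 45.2% of all 13801. CGCGTT was found in 8.47%, 3.31% and 3.11%. The sequence GCCGCC, known as the GCC box, was in 3.77%, 0% and 2.01%. Lists with lower genes varied. The W-box core was in 15 of 17 promoters of pattern-triggered immunity and 13 of 17 of WRKY factors, but 11 of 23 of salicylic acid defence. CGCGTT was in 2 of 8 promoters of mitochondrial stress, 1 of 15 of ERF and CBF factors, 1 of 17 of WRKY factors and 0 of 23 of salicylic acid defence. A match is a description of letters and shows no binding.

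Phosphate starvation genes were lower in lba1 than in upf3-1. Of 20 that passed the filter 12 were lower and none higher, with a median of -1.44. The noncoding RNAs IPS1 and AT4, decoys of miR399, were at 2.50 and 32.5 RPKM in lba1 and 42.3 and 200.1 in upf3-1. Wild type held 47.1 RPKM of IPS1 and 86.1 of AT4, so that IPS1 stood near wild type in upf3-1 and AT4 above it. The phosphatases PEPC1 and PS2 differed by -3.72 and -3.18, the ribonuclease RNS1 by -3.84, and MGD3, a galactolipid synthase, by -2.55. SPX3, an SPX-domain protein of the response, was at 0.493 RPKM in lba1, 7.69 in upf3-1, 6.44 in wild type and 7.07 in the double mutant. Transporters differed less, PHT1;4 by -1.38 and PHT1;1 by -0.18, and PHO2, which degrades transporters, by 0.24. The SPX3 promoter is shown for its pair of matches to P1BS, the site of the phosphate regulator PHR1 (GNATATNC), in capitals, at chr2:18606160-18606409, plus strand.
SPX3: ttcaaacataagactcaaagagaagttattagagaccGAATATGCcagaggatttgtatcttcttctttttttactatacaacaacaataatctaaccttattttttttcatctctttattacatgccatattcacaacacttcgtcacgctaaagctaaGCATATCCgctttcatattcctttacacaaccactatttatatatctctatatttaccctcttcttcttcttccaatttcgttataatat
Both matches, starting 213 and 90 bases before the gene start, are read on either strand. P1BS was found in 6 of 20 promoters of the list, or 30%, against 9.04% of promoters of genes lower in lba1, 4.96% of genes higher and 5.56% of all.

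Iron genes split by role. Of 17 genes of the iron deficiency response 8 were higher in lba1 and none lower, with a median of 0.96, while 4 of 5 genes of iron storage and transport were lower, with a median of -1.55. The transcription factors BHLH38, BHLH39 and BHLH100, which are induced in iron-deficient plants, were at 23.4, 22.3 and 26.7 RPKM in lba1 and 3.18, 3.16 and 3.89 in upf3-1. In wild type they stood at 30.7, 22.2 and 40.4 RPKM, near or above lba1, and in the double mutant at 4.54, 2.99 and 4.93, near upf3-1. AT1G47395 was at 90.14 RPKM in lba1, 21.5 in upf3-1 and 111 in wild type. The iron transporter IRT1 was at 16.5, 7.60 and 25.1 RPKM in the same order, and FRO3, a ferric reductase, at 37.0, 17.5 and 28.6. On the storage side FER1, a ferritin, was at 14.98 RPKM in lba1, 50.9 in upf3-1 and 67.7 in wild type. NAS3, a nicotianamine synthase, was at 0.368, 10.6 and 9.77, YSL1, a transporter of metal and nicotianamine, at 3.06, 9.92 and 10.9, and FER4 at 8.27, 17.1 and 19.2. So the deficiency genes stood low in upf3-1 against wild type, and the storage genes low in lba1.

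Sugar-related genes also differed by role. BAM5, the cytosolic beta-amylase, had the lowest difference of all genes, -6.69 ± 0.12. As stated above, lba1 was isolated in a screen on beta-amylase expression, so a beta-amylase difference is not independent of how the allele was found. BAM5 was at 0.983 RPKM in lba1, 153 in upf3-1, 59.2 in wild type, 32.1 in the double mutant, 5.29 in mock and 4.14 with cycloheximide, so that lba1 was lowest and upf3-1 highest. Among the other beta-amylases BAM7, a nuclear protein, was higher at 1.24, and the rest were between -0.87 for BAM3 and 0.27 for BAM4. Of 7 genes induced by sugar 2 were lower, the plastid transporter GPT2 at -1.85 and the hexose transporter STP13 at -1.22, and all 7 were below 0, or 6 with quantile normalization. Of 13 genes induced by low sugar or darkness 3 were higher and 1 lower. ASN1, the dark-induced asparagine synthetase, was at 51.7 RPKM in lba1, 7.57 in upf3-1, 7.21 in wild type and 85.4 in the double mutant. The hexose transporter STP1 differed by 1.51, SEN1 by 1.11 and DIN2, a beta-glucosidase, by -1.49.

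**Figure D3:**
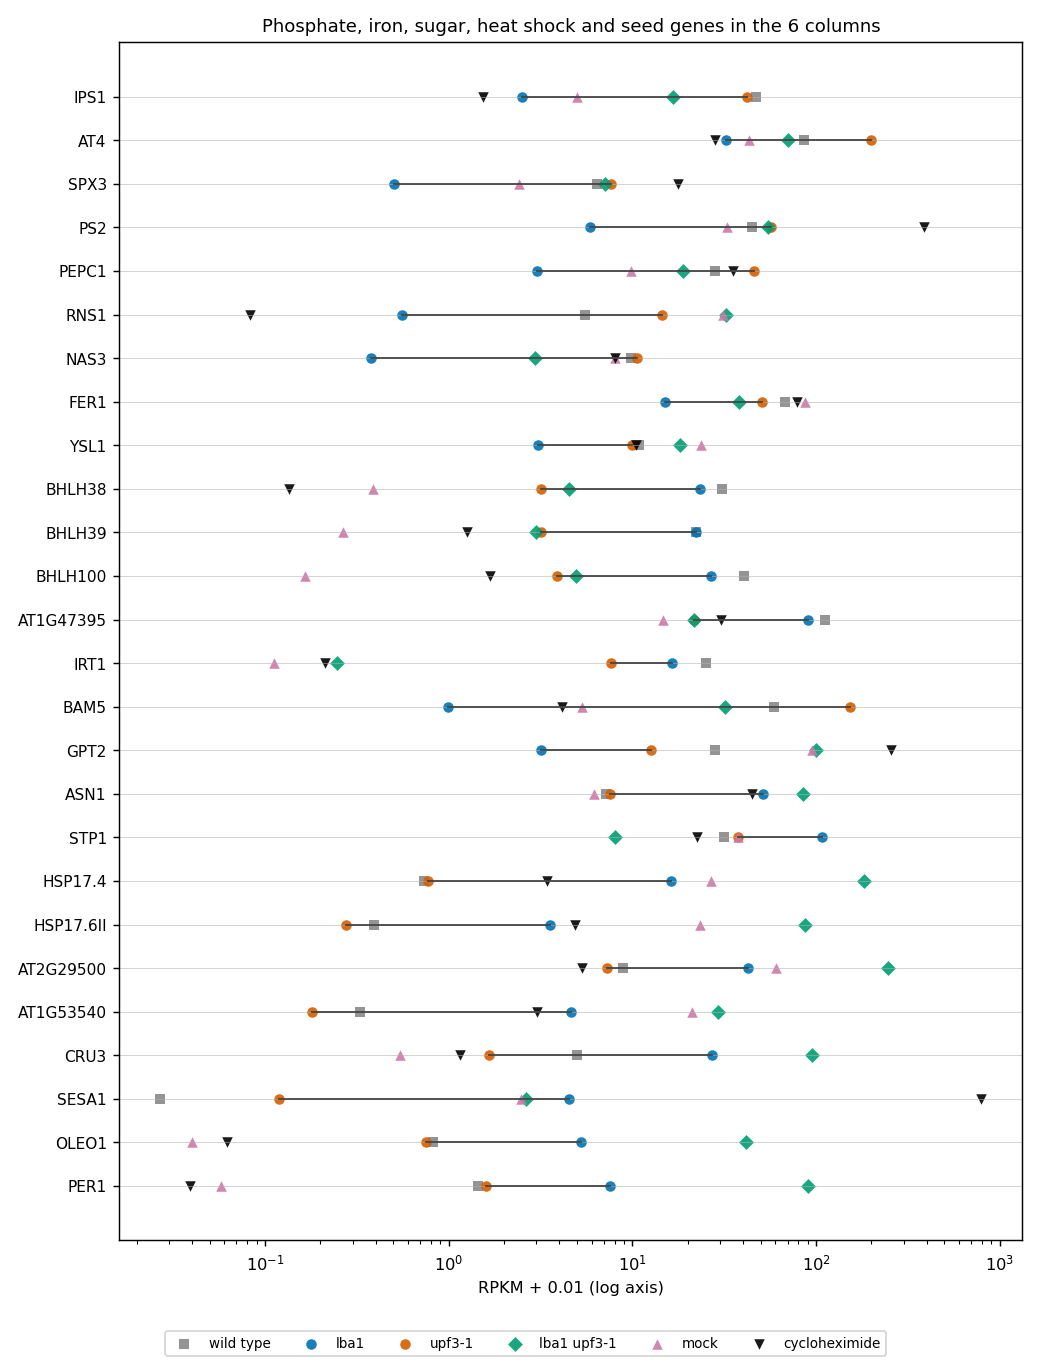
RPKM plus 0.01 is on a log axis for 26 genes of phosphate, iron, sugar, heat shock and seed lists, with 1 point for each of the 6 columns and a line from lba1 to upf3-1. From IPS1 to YSL1, and in BAM5 and GPT2, the lba1 point is left of upf3-1, and in the other genes it is right of it.

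Some small heat shock proteins, chaperones that hold unfolded proteins, were higher in lba1. Of 12 listed members 6 were higher and none lower, with a median of 1.09, but 5 were below 0, down to -0.90 for AT5G51440. Over the 14 described genes annotated as HSP20-like chaperones, some of them in the list, 3 were higher and the median was -0.08. HSP17.4 was at 16.3 RPKM in lba1, 0.764 in upf3-1, 0.723 in wild type, 182 in the double mutant and 26.7 in mock, and 70.9% of its exon bases lie under another locus. AT1G53540, annotated as an HSP20-like chaperone, was at 4.62, 0.171, 0.320, 29.3 and 21.1 RPKM in the same order. In both genes upf3-1 matched wild type more closely than lba1 did. AT2G29500 and HSP17.6II differed by 2.48 and 2.39, and HSP17.6A and AT1G07400 by 1.76 and 1.35. Of 15 heat shock factors and large chaperones HOP3, a co-chaperone, was higher at 1.18 and HSFB2A, a heat shock factor, lower at -1.15. HSP70, HSP90.1 and HSP101 differed by -0.25, -0.38 and -0.14. The promoters of HSP17.4 and AT1G53540 are shown for their heat shock elements, capitalised, in which GAA and TTC blocks alternate, at chr3:16984868-16985117, minus strand and chr1:19980049-19980298, plus strand.
HSP17.4: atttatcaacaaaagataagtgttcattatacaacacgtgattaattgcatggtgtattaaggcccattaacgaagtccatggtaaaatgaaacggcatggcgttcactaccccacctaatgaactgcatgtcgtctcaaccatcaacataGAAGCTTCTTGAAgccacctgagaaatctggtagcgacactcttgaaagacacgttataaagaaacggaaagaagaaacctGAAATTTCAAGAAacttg
AT1G53540: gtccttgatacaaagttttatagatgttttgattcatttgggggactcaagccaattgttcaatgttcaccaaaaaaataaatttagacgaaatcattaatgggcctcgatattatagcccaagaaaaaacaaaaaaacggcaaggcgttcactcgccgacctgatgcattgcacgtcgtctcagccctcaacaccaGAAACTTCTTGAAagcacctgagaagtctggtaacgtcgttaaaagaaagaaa
They hold 2 matches, starting 99 and 18 bases before the gene start, and 1, at 53 bases. This element was found in 0.449% of all promoters, or 62 of 13801. It was in 3 of 121 promoters of genes higher in lba1, or 2.48%, and 3 of 531 of genes lower, or 0.565%. The 2 promoters shown are among the 3 of genes higher, so that share rests largely on them. In the list 2 of 12 promoters held it.

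Seed genes were higher in lba1 at low levels. Of 8 that passed the filter 7 were higher, with a median of 2.02, and all 12 of the remaining members with any value in the columns compared were also above upf3-1. Since passing the filter needed a high value in some column, the sum over all 21 listed genes is also given: 97.9 RPKM in lba1 and 21.2 in upf3-1, against 26.5 in wild type and 543 in the double mutant. CRU3, a cruciferin storage protein, was at 27.1 RPKM in lba1, 1.64 in upf3-1, 4.99 in wild type and 95.2 in the double mutant. OLEO1, an oleosin that coats oil bodies, was at 5.25, 0.742, 0.817 and 41.5 RPKM in the same order, and PER1, a seed peroxiredoxin, at 7.53, 1.59, 1.43 and 90.5. SESA1, a seed albumin, was at 4.51 RPKM in lba1, 0.110 in upf3-1 and 795 with cycloheximide. Whether few cells or many carried these RNAs was not tested. The promoters of OLEO1 and CRU3 are shown for the RY element CATGCA of seed regulators, in capitals, at chr4:12900180-12900429, plus strand and chr4:14087306-14087555, plus strand.
OLEO1: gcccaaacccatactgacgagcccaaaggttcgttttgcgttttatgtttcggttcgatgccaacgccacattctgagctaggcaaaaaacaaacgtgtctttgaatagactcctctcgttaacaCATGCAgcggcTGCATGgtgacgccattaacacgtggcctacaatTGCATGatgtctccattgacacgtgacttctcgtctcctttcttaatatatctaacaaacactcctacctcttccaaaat
CRU3: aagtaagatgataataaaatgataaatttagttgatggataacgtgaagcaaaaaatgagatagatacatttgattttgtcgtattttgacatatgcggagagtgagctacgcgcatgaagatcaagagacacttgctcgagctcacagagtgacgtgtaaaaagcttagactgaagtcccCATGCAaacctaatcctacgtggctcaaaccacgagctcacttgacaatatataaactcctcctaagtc
OLEO1 holds 3 matches and CRU3 holds 1. The element was found in 5 of 8 promoters of the seed genes that passed, in 20.7% of promoters of genes higher in lba1, 11.5% of genes lower and 7.16% of all. It was not particular to seed genes. Sugar-induced genes held it in 3 of 7 promoters, plant defensins and basic PR genes in 3 of 8, small heat shock proteins in 3 of 12 and phosphate starvation genes in 0 of 20. Unlike the seed list, abscisic acid and cold output held 1 of 23 genes past 2-fold, with a list median of -0.15. That gene was CYP707A3, which breaks down abscisic acid, at -2.88 ± 0.13.

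Few growth genes were past 2-fold, most of them higher in lba1. IAA29, an early auxin gene, was at 5.13 RPKM in lba1, 0.760 in upf3-1 and 0.609 in wild type, the 1 of 19 auxin genes past 2-fold, and the list median was 0.29. Among 22 expansins and XTH enzymes, which loosen or remodel cell walls, 4 were higher and 1 lower. XTH15 differed by 2.50, XTH33 by 1.69, XTH4 by 1.13, XTH16 by 1.09 and XTH18 by -1.23. All 15 mitotic genes had more RPKM in lba1 than in upf3-1, summing to 106 and 62.1 RPKM, but 13 were under the filter, and the log2(RPKM + 0.5) differences ran from 0.44 to 0.89. CYCD3;1, a cyclin, was at 29.0 RPKM in lba1 and 15.4 in upf3-1, and KNOLLE, a syntaxin of cell plate formation, at 23.2 and 14.8. In ribosome biogenesis 13 of 15 genes were above 0, or 10 with median scaling, with none past 2-fold, at a median of 0.28. In ethylene 3 of 14 genes were lower, all ACC synthases: ACS6 at -2.15, ACS7 at -1.59 and ACS11 at -1.57.

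Other lists held no gene past 2-fold. Photosynthesis genes, 34 in number, summed to 54770 RPKM in lba1 and 54783 in upf3-1, and ran from RCA, Rubisco activase, at -0.41 to the antenna protein gene LHCB1.1 at 0.76, one of a set of near-identical copies. Clock genes ran from LHY at -0.45 to PRR7 at 0.45. Anthocyanin genes ran from DFR at -0.92 to MYBL2 at 0.22, hypoxia genes from LBD41 at -0.78 to PDC1 at 0.59, and nitrate genes from NIA2 at -0.59 to NRT1.1 at -0.02. The list of cytosolic ribosomal proteins, taken by annotated product, had a median of 0.03 over 16 genes and ran from RPL27 at -0.38 to RPL16A at 0.73. That product search also took in SSR16 and RPL27, which are known as plastid proteins. Over the 13 members whose product names the 60S or 40S subunit the median was 0.05.

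Markers of organs and cell types were compared as RNA levels, which do not give numbers of cells. The 4 leaf mesophyll markers summed to 13690 RPKM in lba1 and 15172 in upf3-1, though 2 of the 4 had more RPKM in lba1. All 12 markers of root hair, endodermis and root tip had more RPKM in lba1. They summed to 13.9, 25.4 and 2.05 RPKM there, against 9.34, 18.199 and 0.922 in upf3-1. The list of root markers held 15 genes, of which 14 had more RPKM in lba1 and 1 had less. Its sums were 667 RPKM in lba1 and 559 in upf3-1. Of these 15 genes 13 were under the filter, and neither of the 2 that passed was past 2-fold. All 3 markers of the stomatal lineage had more RPKM in lba1 too, with sums of 12.2 and 6.18 RPKM, and 1 of 3 guard cell markers. The 5 flower markers summed to 1.09 RPKM in lba1 and 2.58 in upf3-1. The part of cell makeup in the differences above was not tested.

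**Figure D4:**
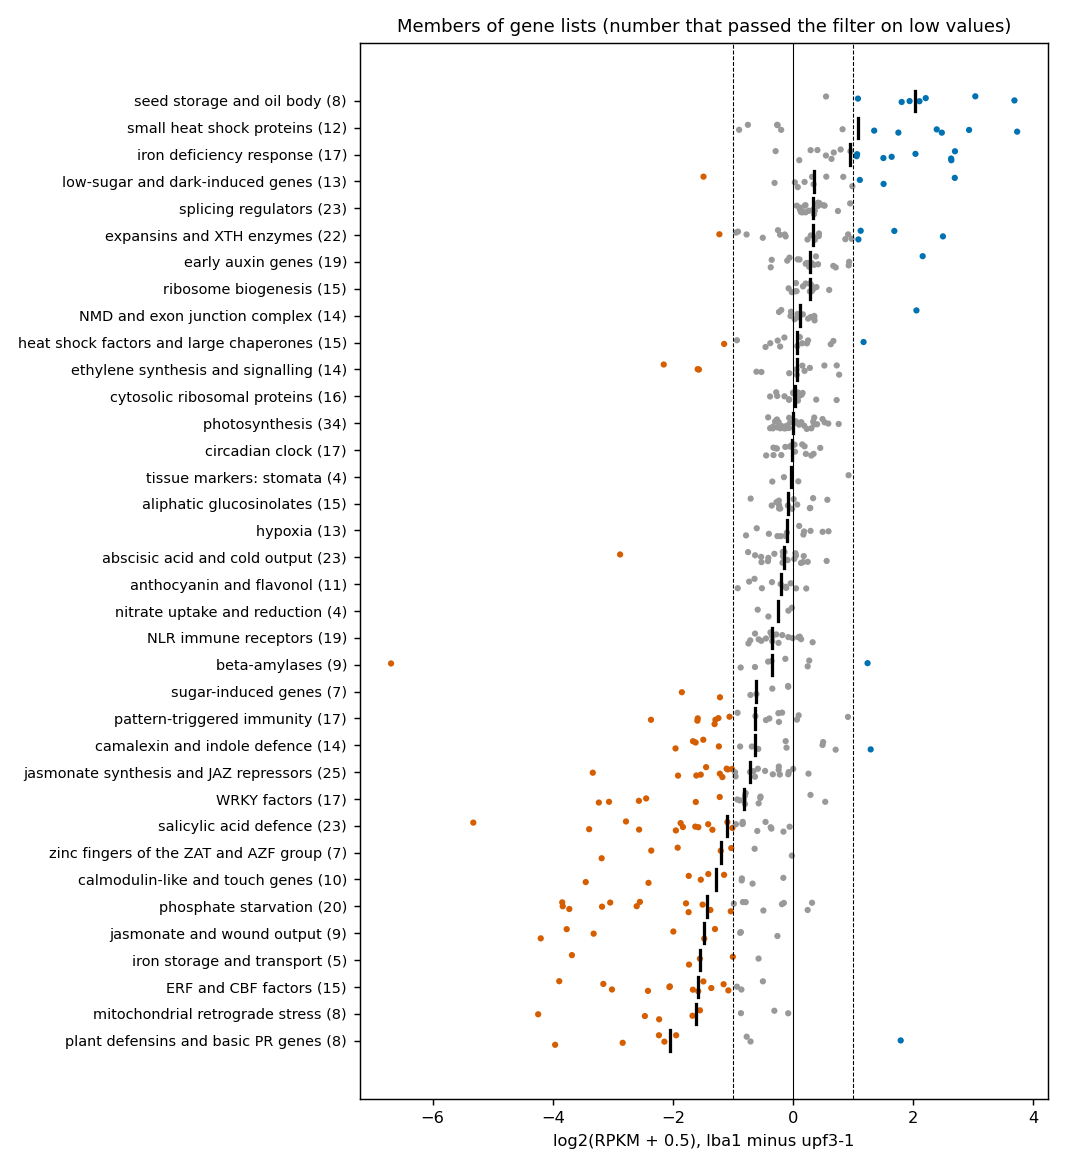
Each point is a gene that passed the filter, placed by its log2(RPKM + 0.5) difference (lba1 minus upf3-1) in its list, with the number of such genes in parentheses, dashed lines at 2-fold and a black bar at the list median. List medians run from -2.04 for plant defensins and basic PR genes to 2.02 for seed storage and oil body genes.

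The genes of highest abundance past 2-fold include several outside these lists. Lower in lba1 were AT1G09310, of unknown function, at 399 RPKM against 1114 in upf3-1, the metallothionein MT2A at 467 against 994.5, the catalase CAT3 at 389 against 799 and GRP-3, a glycine-rich protein, at 354 against 773. The superoxide dismutase FSD1 was at 172 against 388 RPKM. Higher were GASA6 and GASA1, gibberellin-regulated proteins, at 534.5 against 247 and 506 against 205 RPKM, and the aquaporin PIP3, at 437 against 214. The highest difference of all genes was that of AT1G68250, an uncharacterized protein, at 20.96 RPKM in lba1, 0.606 in upf3-1, 0.178 in wild type and 50.4 in the double mutant. In the organelle genomes 6 of 52 loci were higher and none lower, beside 0.945% higher and 3.84% lower of all genes. No exon length was available for these 6 loci, so they carry no counting interval and no check of overlap. Of the 60 leading genes, 9 share over 10% of their exon bases with another locus, and the library kit does not mark strand.

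Columns outside the difference, which still count in the filter on low values, show where the genes of the comparison stood elsewhere. Of the 540 genes lower in lba1, 328 were at least 2-fold higher in lba1 upf3-1 than in wild type, or 60.7%, beside 22.1% of all genes. With cycloheximide against mock 330 of them were higher, or 61.1%, beside 13.3%, and in mock against wild type 289, or 53.5%, beside 14.2%. These are 10.6%, 17.65% and 14.5% of all genes higher in those comparisons. The 133 genes higher in lba1 held 60, or 45.1%, that were lower in the double mutant than in wild type, beside 21.2% of all genes. In that comparison 30.8% were higher, beside 22.1%. Their share lower with cycloheximide, 47.4%, was near the 44.1% of all genes, and 16.5% were higher, beside 13.3%. Over all genes the median of cycloheximide minus mock was -0.81, a shift of the whole column that was not scaled out in these shares. In mock 28.6% were higher, beside 14.2%, and 24.8% lower, beside 11.9%, so the genes higher in lba1 went both ways there. The mock column is in both of the last comparisons, and the wild type column in the mock and double mutant comparisons. With the filter on the lba1 and upf3-1 columns alone, 48.9%, 56.0% and 46.6% of the genes lower in lba1 were higher there, beside 17.61%, 8.89% and 9.67%. Under that filter 15.5% of the genes higher in lba1 were higher in the double mutant than in wild type, beside 17.61%. So their excess of 30.8% over 22.1% was not kept, while 56.03% were lower, beside 23.9%. In medians the 540 genes stood at 3.41 RPKM in lba1, 7.04 in wild type, 12.8 in upf3-1, 20.8 in mock, 28.4 in the double mutant and 79.4 with cycloheximide. This order is partly set by the selection, since lba1 and upf3-1 chose the genes and the other columns count in the filter. Medians with the filter on the lba1 and upf3-1 columns alone were not computed.

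**Figure D5:**
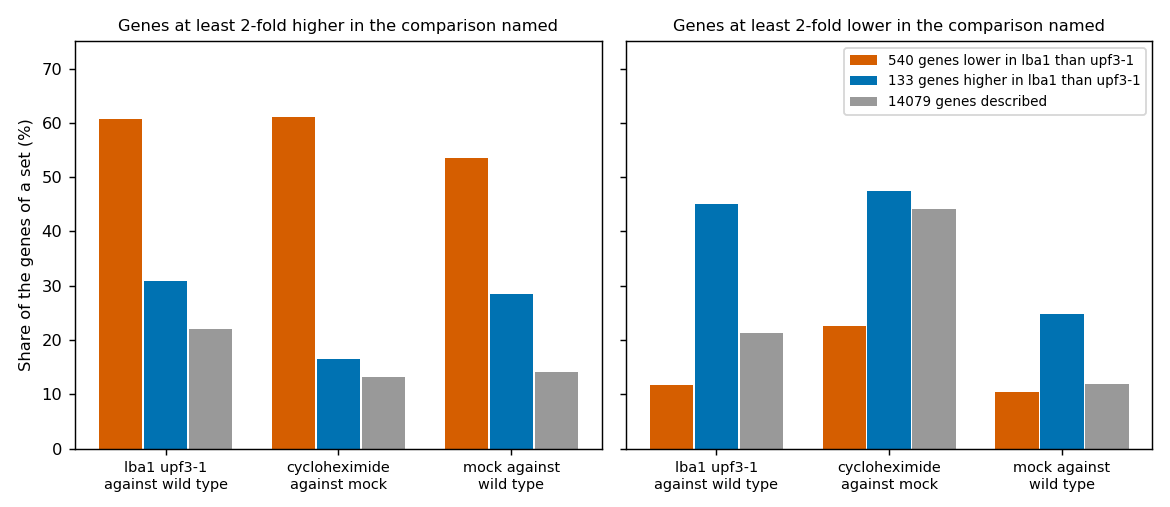
Bars give the share, in percent, of the 540 genes lower in lba1, the 133 higher and all 14079 described that were at least 2-fold higher (left) or lower (right) in 3 comparisons of the other columns. The genes lower in lba1 exceed all genes in the left panel in each comparison, at 60.7%, 61.1% and 53.5%.

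At the edge of the 2-fold rule, FER4, GPX7 and AT1G73810 were just past it on the lower side, at -1.001, -1.0002 and -1, and AT5G66675 and IDA just short, at -0.997 and -0.995. On the higher side NDB4 and PHYLLO were just past, at 1.002 and 1.007, and sks17 and GH9B1 just short, at 0.996 and 0.992.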

How the data were processed

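An Illumina TruSeq kit turned total RNA into RNA-seq libraries, per the labels' protocols. The authors deposited gene expression as RPKM, 1 column a group, on TAIR10 (build named in the submitters' processing notes). Aligner, counting and pooling steps were not given in the sources used here. Names, exon lengths, overlaps and promoter sequences came from the TAIR10.1 genome and annotation of RefSeq, which held 32835 of 33602 loci. The table carries no coordinates.

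Differences were log2(RPKM + 0.5), over genes averaging 5 RPKM or more, with a 2-fold rule and no test. Depth was recovered from values of up to 8 reads among 623 transfer RNA loci, 86 to 114 values in a column. At the total chosen 94.2% to 97.4% of these values were whole within 0.05 of a read. The total was picked for a high share of whole values, so this share is no separate check. Both steps were tested on simulated data. Python 3.11.15, numpy 2.4.6 and pandas 2.3.3 were used.

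The members and the 40 gene lists were chosen with earlier results of these data known. Of 661 listed genes 2 were dropped for another annotated name, and 529 of the other 659 passed the filter. Named genes were those of the decay list, the 20 highest and 20 lowest differences, up to 6 members past 2-fold on each side of a list (or its extremes), and the 10 most abundant past 2-fold in each direction, with some left out for length. A few others were chosen after their values were seen. The ribosomal protein list, left out at one stage for holding plastid proteins once its value was known, is given as planned. Its narrower version, the unfiltered list medians and the 2-column filter of the shares in other comparisons were chosen after seeing the data. One gene of the decay list is not reported here. Alternatives changed the pseudocount, scaling, filter, overlapping loci and organelle loci.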

Additional observations from a re-analysis of the deposited data

How the results depend on the processing

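No paired analysis was possible because each group is 1 pooled column, and for the same reason no replicate could be left out. The count of 133 genes higher in lba1 became 237 with a mean of at least 1 RPKM, 79 with at least 10 RPKM and 280 with no filter on low values, where 635 were lower and 30.6% of the genes past 2-fold were higher, beside 19.8%. The count of 540 lower became 350 with the filter on the lba1 and upf3-1 columns alone. Other settings gave 108 to 163 higher and 466 to 631 lower. Of 167 list members and leading genes past 2-fold all kept their direction under both other pseudocounts, median scaling and quantile normalization. With pseudocounts of 0.1 and 1 RPKM and these scalings, 167, 159, 163 and 161 of them stayed past 2-fold. List medians near 0 changed sign: ethylene to -0.014 with median scaling and to -0.00231 without overlapping loci, ribosomal proteins to -0.046 with median scaling, conserved upstream reading frames to 0.0076 and heat shock factors and large chaperones to -0.039 with quantile normalization, and stomatal markers to 0.39 with a mean of at least 1 RPKM or no filter, which add 2 genes. The cause of the other changes was not tested. Depth limits only genes of low level: 3 reads are 0.0340 RPKM at 1 kb in lba1.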
